A study of Mus musculus with 6 samples.

Results

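The Rara and Igfbp4 locus on mouse chromosome 11 (genome build mm9) was described through the distal regions that captured promoters contact there. A distal region was taken when its fragment starts in a window of 600 kb and when the same pair of promoter fragment and distal region was listed in both HiCap replicates. These lists are the measured values that the members were chosen by, so the number of pairs in both lists is a description and carries no test. The rule gave 371 distal regions of 71955 in the whole genome. They formed 672 pairs with 45 promoter fragments of 23 genes. The first region inside the window starts at 98451230 and was linked to Ormdl3 and Zpbp2, and the last starts at 99042629 and was linked to Ccr7. Just outside lie a region of Ormdl3 at 98445773 and a region of Ccr7 at 99060839, each with 1 promoter.

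HiCap joins Hi-C, a proximity ligation method, to sequence capture of promoters. Both assays used the R1 line of mouse embryonic stem cells, fixed with 1% formaldehyde for 10 min and cut with MboI for 4 h. There were 2 HiCap replicates, each with a list of its own, and 2 Hi-C replicates, which share 1 pooled list. The groups differ in the assay, and no treatment was compared. The 2 Capture-C samples were not used here.

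Chromatin contacts bring a promoter near other stretches of its chromosome, and promoters of neighbouring genes can contact the same stretch. The genes of this locus include 3 nuclear receptors, which are transcription factors of the ligand-binding kind: Thra binds thyroid hormone, Rara binds retinoic acid, and Nr1d1 binds heme and takes part in the circadian clock. Cdc6 loads the replicative helicase at origins, Top2a untangles DNA in dividing cells, and Igfbp4 is a secreted protein that binds insulin-like growth factors. Retinoic acid acting through its receptors is a classical inducer of differentiation in embryonic stem cells.

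In the locus, 5 regions had at least 10 promoters, and the start of each is shown because the other results return to them. Each line gives the first 150 bases of the plus strand of mm9, with the MboI site in capitals. The first 2 regions lie between the genes Nr1d1 and Msl1 and the other 3 in introns of Rara.
Region with 25 promoters, chr11:98649476-98649625: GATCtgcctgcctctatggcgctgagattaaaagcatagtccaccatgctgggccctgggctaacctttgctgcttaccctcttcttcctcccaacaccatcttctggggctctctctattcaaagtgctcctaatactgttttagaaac
Region with 19 promoters, chr11:98643642-98643791: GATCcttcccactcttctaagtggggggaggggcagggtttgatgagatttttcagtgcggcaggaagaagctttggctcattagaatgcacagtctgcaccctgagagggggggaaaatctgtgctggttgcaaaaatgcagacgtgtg
Region with 15 promoters, chr11:98803969-98804118: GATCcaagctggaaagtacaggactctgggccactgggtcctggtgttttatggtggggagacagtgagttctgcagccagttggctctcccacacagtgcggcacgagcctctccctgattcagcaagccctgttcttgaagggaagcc
Region with 12 promoters, chr11:98803404-98803553: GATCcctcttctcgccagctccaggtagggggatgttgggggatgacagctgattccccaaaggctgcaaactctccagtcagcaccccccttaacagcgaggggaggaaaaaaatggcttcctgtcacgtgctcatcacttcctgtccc
Region with 11 promoters, chr11:98823369-98823518: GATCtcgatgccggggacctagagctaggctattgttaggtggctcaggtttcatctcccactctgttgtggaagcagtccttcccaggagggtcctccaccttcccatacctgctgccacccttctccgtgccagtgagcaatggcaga

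These 5 regions made up 1.35% of the 371 (exact 95% binomial interval 0.439 to 3.12%), beside 0.495% of all called distal regions of the genome. The interval covers counting error only. The number of promoters comes from the lists that the rule used, so the difference is a description. The region with 25 promoters spans 98649475 to 98651228, and its 1753 bases have a G+C content of 49.1%. It was linked to 36 promoters in replicate 1 and to 45 in replicate 2. Its 25 called promoters belong to 13 genes, from Gsdma3, which lies 163 kb away, over Med24, Thra, Nr1d1 and Msl1 to Cdc6 at 119 and 121 kb and Rara at 149 kb. With this region, 12 of the genome had at least 25 called promoters.

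Hi-C, which the rule did not use, also listed this region with more promoters than any other of the locus. It had 11 promoters in the pooled Hi-C list, of the genes Csf3, Med24, Msl1, Nr1d1, Ormdl3, Psmd3, Rara, Thra and Wipf2, and 7 of the 25 called pairs were among them. Of the 66871 Hi-C distal regions of the genome, 2 had at least 11, this one included. In the locus, the next Hi-C region had 7 promoters and starts at 98849905, between Gjd3 and Top2a. That region had 8 promoters in replicate 1, 4 in replicate 2 and 2 in both. The locus is dense in promoters: the lists name 53 promoter fragments in the 600 kb, or 8.83 per 100 kb, against 2.88 per 100 kb over chromosome 11. The part of this density in the number of promoters per region was not tested.

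The neighbouring region with 19 promoters, from 98643641 to 98645110, was linked to 37 promoters in replicate 1, 35 in replicate 2 and 4 in Hi-C. Its called genes are also 13, and 10 of them are those of the first region. It holds the longest called pair of the locus, 344 kb to the promoter of 1810046J19Rik, which RefSeq names Mien1. In Hi-C it was listed with Nr1d1, Thra and Wipf2. The region at 98651228, which adjoins the one with 25 promoters, had 5 called promoters and 4 in Hi-C.

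The other 3 regions lie within Rara. A pair of adjoining fragments, at 98803403 and 98803968, had 12 and 15 called promoters. The fragment at 98803403 had 20 in replicate 1, 29 in replicate 2 and 5 in Hi-C, and it reached from Psmd3, a subunit of the proteasome lid, at 260 kb on one side to Ccr7, a chemokine receptor, at 212 kb on the other. The fragment at 98803968 had 21, 41 and 3. Both were linked to Cdc6, Rara, Wipf2, Gjd3 and Igfbp4. The region at 98823368 had 11 called promoters, 15 in replicate 1, 21 in replicate 2 and 1 in Hi-C. The 5 regions were not ordered alike in Hi-C and in the called pairs.

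**Figure D1:**
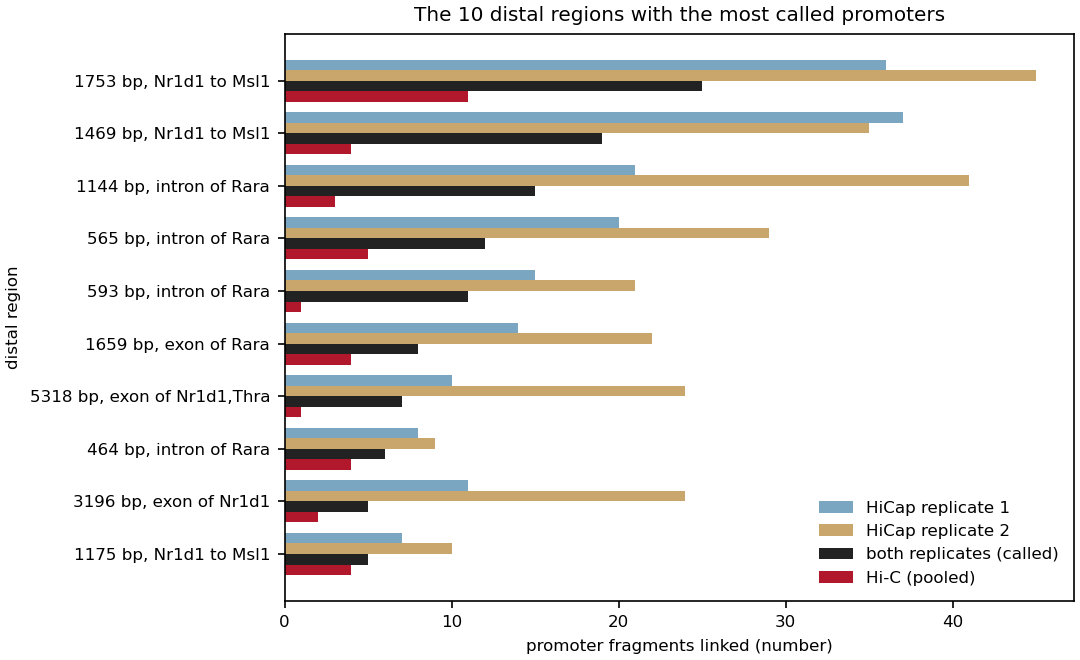
Number of promoter fragments linked to each of the 10 distal regions with the most called promoters, in HiCap replicate 1, in replicate 2, in both and in the pooled Hi-C list; labels give the length and the place. The first region has 25 called and 11 Hi-C promoters, while the region of 593 bp has 11 and 1.

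The next 5 regions had 5 to 8 called promoters. The region at 98824977 overlaps an exon of Rara and had 8, the region at 98625827 overlaps exons of Thra and Nr1d1 and had 7, and the region at 98805112 in Rara had 6. The region at 98631145 is itself a captured promoter fragment of Nr1d1, the only 1 of the 371, and had 5 called promoters, of Med24, Nr1d1 and Thra. As the promoter side of a pair, the same fragment had 4 distal regions in replicate 1, 23 in replicate 2 and none in both.

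Most regions had few promoters. Of the 371, 214 had 1 promoter, 104 had 2 and 36 had 3. In all, 42.3% had at least 2 promoters (exact 95% interval 37.2 to 47.5%), beside 15.4% over all called distal regions. Regions share promoters and the lists are those of the rule, so this interval covers counting error only and carries no test. The mean was 1.81 promoters per region, against 1.32 in the whole genome, and without the 5 regions with at least 10 promoters it was 1.61. Regions that are longer had more: 24.7% of those up to 300 bp had at least 2 promoters and 59.6% of those over 1000 bp, against 12.0 and 21.2% in the same length classes on the rest of chromosome 11. The share was higher in the locus in all 4 length classes.

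Rara had the second largest number of called distal regions in the locus. It had 177 in replicate 1, 243 in replicate 2, 100 in both and 51 in Hi-C, and 41 of the 100 were also Hi-C regions of Rara. The receptor gene has 4 promoter fragments with calls. The fragment at 98798665 had 145 regions in replicate 1, 167 in replicate 2, 88 in both and 23 in Hi-C, and the downstream fragment at 98821734, of only 197 bp, had 96, 129, 55 and 26. These 2 fragments shared 43 regions. All 14 regions of the fragment at 98801006 and all 5 of that at 98788934 were also regions of the fragment at 98798665. The median distance over the 162 pairs of Rara was 17.7 kb, and 104 of them lay downstream of the promoter.

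Thra, the thyroid hormone receptor, had fewer: 34 regions in replicate 1, 51 in replicate 2, 13 in both and 15 in Hi-C. Its most linked fragment, at 98602770, had 11 called regions. The 3 regions of Thra with the most promoters were those at 98649475, 98643641 and 98803403, of which the last lies in Rara, 200 kb away. Of its 18 pairs 5 were in Hi-C, and 14 lay downstream. Nr1d1, which overlaps Thra on the other strand, had 67 and 94 regions in the replicates, 35 in both and 23 in Hi-C. Its 35 pairs all came from the fragment at 98636267 and had a median distance of 9.50 kb, and 15 of them were in Hi-C.

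Of the genes for replication, Cdc6 had 116 regions in replicate 1, 119 in replicate 2, 43 in both and 20 in Hi-C. All 43 were regions of its fragment at 98769218, and the other fragments had 3 called regions each. Its farthest called region, 141 kb away, is the one at 98625827 that overlaps Thra and Nr1d1. The 2 replicate lists of Top2a had 1 region in common. Its 5 fragments had 40 regions in replicate 1, 24 in replicate 2 and 31 in Hi-C, but 1 in both replicates, the region at 98803968 in Rara. Of the Hi-C regions of Top2a, 12 were also in replicate 1 and 4 in replicate 2. Beside this, 40.9% of the replicate 1 pairs of the locus were in replicate 2, and 31.1% the other way. In the genome these shares were 19.0 and 17.1%.

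Igfbp4 had the most regions: 248 in replicate 1, 267 in replicate 2, 111 in both and 27 in Hi-C. Its fragments at 98902212, 98904119 and 98908337 had 70, 60 and 25 called regions, and the first 2 shared 26. Downstream of the promoter, towards Tns4 and Ccr7, lay 118 of its 155 pairs. The median distance was 23.3 kb. Its called regions with the most promoters were those in Rara at 98803968, 98803403 and 98805112. Of the regions of Igfbp4, 65 were linked to no other gene, as were 64 of the 100 of Rara, 18 of the 43 of Cdc6 and 4 of the 13 of Thra.

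**Figure D2:**
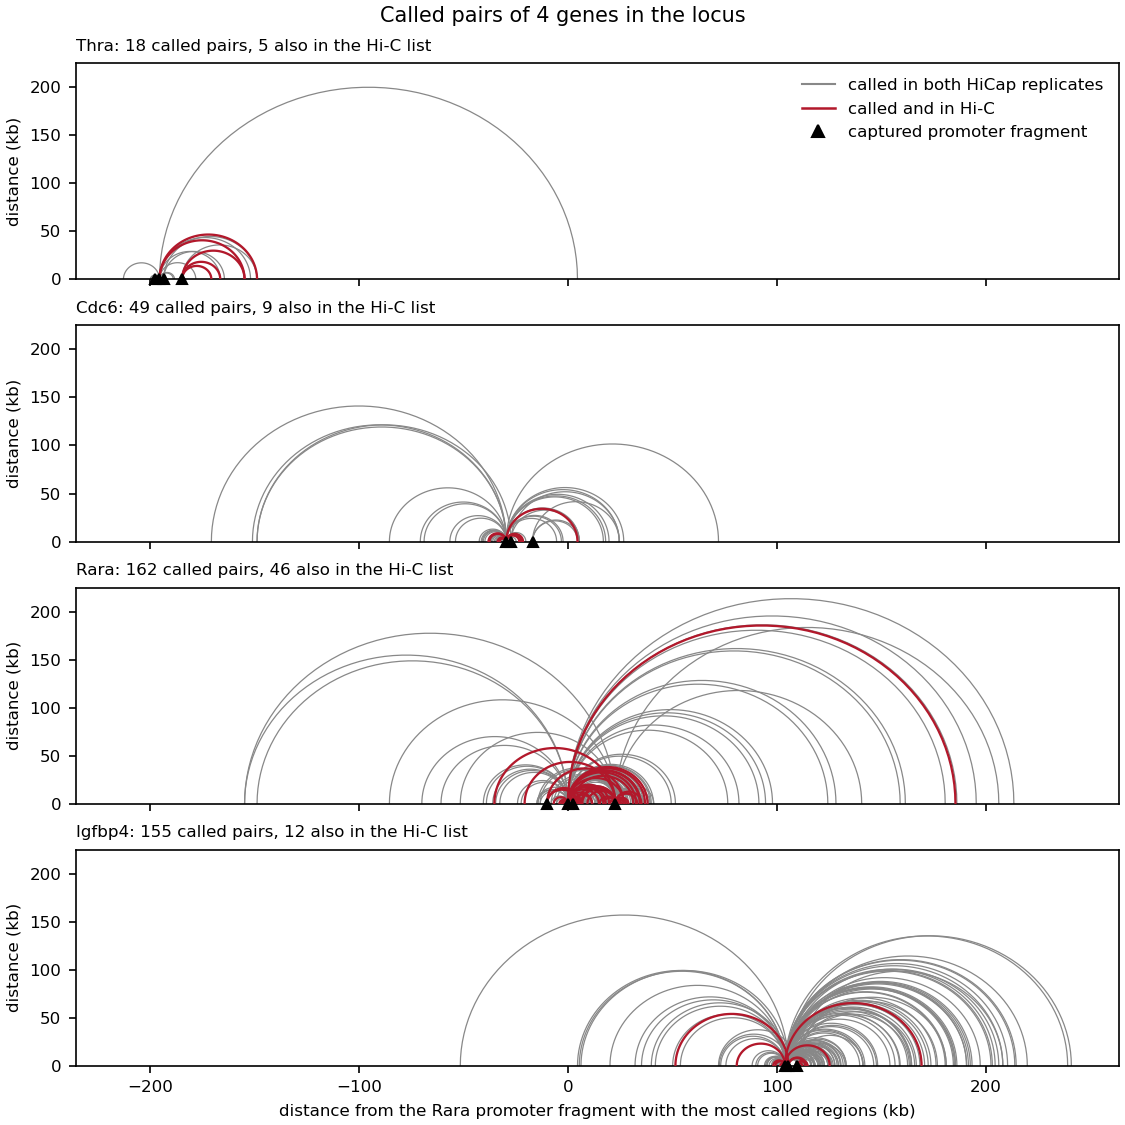
Called pairs of Thra, Cdc6, Rara and Igfbp4, drawn as arcs whose height is the distance in kb, against the position in kb from the Rara fragment with the most called regions; pairs that are also in Hi-C are red and triangles mark promoter fragments. The arcs of Igfbp4 lie mostly to the right of its promoters, and 46 of the 162 arcs of Rara but 12 of the 155 of Igfbp4 are red.

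Among genes for cofactors of transcription, Med24, a Mediator subunit, had 76 and 80 regions in the replicates, 33 in both and 23 in Hi-C, and Msl1, a scaffold of a histone acetyltransferase complex, had 43, 62, 15 and 8. Smarce1, a subunit of a chromatin remodelling complex, has its promoter fragments to the right of the window. It had 3 pairs with the window in replicate 1, 14 in replicate 2, none in both and 1 in Hi-C. In the genome, 17.1% of the pairs of replicate 2 were in replicate 1, and 2.16% of those over 100 kb. Nothing is read from the lack of a call. Casc3, a component of the exon junction complex, had 21 called regions and 4 in Hi-C. Psmd3 had 6 called regions and 19 in Hi-C.

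The genes for cytoskeleton and signalling varied. Tns4, a tensin of focal adhesions, had 38 called regions, Wipf2, which binds WASP proteins, 20, Rapgefl1 12 and Gjd3, a gap junction protein, 6. In Hi-C they had 10, 25, 11 and 10. Of the immune genes, Ccr7 had 20 called regions, and Csf3, the granulocyte colony-stimulating factor, had 10. The gasdermin genes Gsdma, Gsdma3 and Gsdma2 had 18, 15 and 13, and Ormdl3, which controls sphingolipid synthesis, had 6. The promoter fragment of Ormdl3 lies left of the window, so only its regions inside the window were counted. It had 49 and 73 regions in the whole replicate lists, of which 19 and 25 were in the window. None of the 13 pairs of Gsdma2 was in Hi-C, nor any of the 9 of Psmd3 or the 6 of Gjd3. Beside this, 12.5% of all called pairs were in Hi-C, so nothing is read from such small counts. Of genes outside these roles, Zpbp2, whose promoter fragment with the call lies left of the window, and Gm12 had 1 called region each. Ikzf3, a lymphoid transcription factor, had no called pair with the window, 0 pairs in replicate 1, 12 in replicate 2 and 3 in Hi-C. The 42 keratin and keratin-associated genes that the lists name on this chromosome had 7 pairs in replicate 1, 77 in replicate 2, none in both and 2 in Hi-C. In the genome, 17.1% of the pairs of replicate 2 were in replicate 1, and 2.16% of those over 100 kb. The lack of a call for Ikzf3 and the keratin genes is therefore not read as a trait of them.

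**Figure D3:**
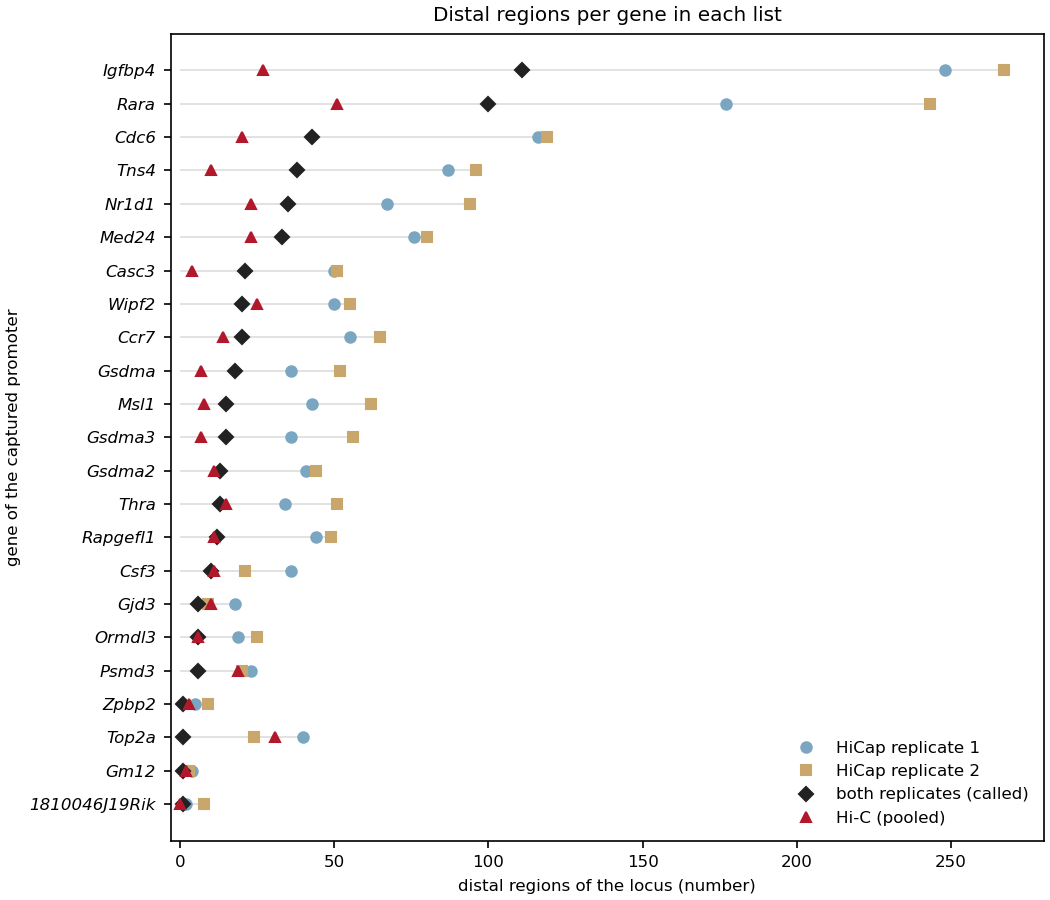
Distal regions of the locus per gene in HiCap replicate 1, HiCap replicate 2, both and the pooled Hi-C list. Igfbp4 and Rara have the most called regions, 111 and 100, and Top2a has 1 although each list holds 24 or more.

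Of the 45 promoter fragments, 11 had at least 20 called distal regions (24.4%, exact 95% interval 12.9 to 39.5%), beside 6.20% of all promoters with a call. This share also comes from the lists that the rule used and carries no test. Of 53 promoter fragments in the window that any list names, 42 had a called pair in it and 11 had none. The fragments without one were 4 of Top2a and 1 each of Gsdma2, Med24, Nr1d1, Wipf2, Igfbp4, Tns4 and a gene with a clone name at 98544516 that overlaps Gm12356 in the annotation. The last was the only gene of the window with no call there, and 1 pair of replicate 2 was all that the lists gave it.

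Regions were also shared between genes. Of the 371 regions, 268 were linked to 1 gene, 54 of them through several of its promoters, and 103 to several genes. No such count over all called distal regions stands beside these, so nothing is read from them. Rara and Cdc6 had 18 regions in common, which are 41.9% of those of Cdc6 and 18.0% of those of Rara. They shared 53 in replicate 1, 56 in replicate 2 and 6 in Hi-C. Rara and Igfbp4 shared 17, or 17.0% and 15.3% of their regions, with 68 and 97 in the replicates and 1 in Hi-C. The largest overlap was that of Igfbp4 with Tns4, at 24 regions, or 21.6% of those of Igfbp4 and 63.2% of those of Tns4. In Hi-C, these 2 genes had no region in common.

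Left of Rara, Med24 and Nr1d1 shared 12 regions, or 36.4% and 34.3%, and 7 in Hi-C. Thra shared 8 of its 13 regions with Med24 and 6 with Nr1d1. With the genes farther right it shared 3 with Cdc6, 3 with Rara and 1 with Igfbp4. Cdc6 and Wipf2 shared 10, and Cdc6 and Igfbp4 3. All 6 regions of Gjd3 were also regions of Rara. Of the 18 regions of Gsdma, 10 were linked to no other gene, and the rest were shared only with Gsdma2, Gsdma3 and Ormdl3.

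**Figure D4:**
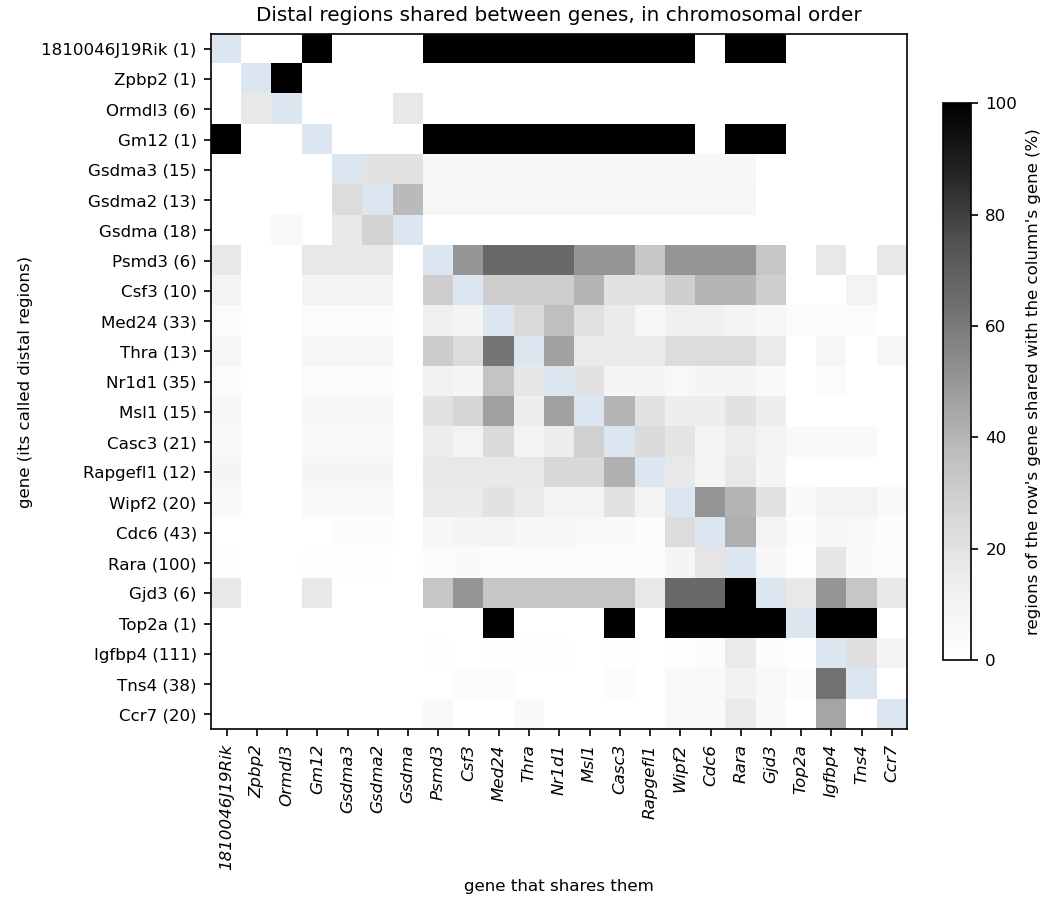
Share in percent of each row gene's called distal regions that the column gene also has, with genes in chromosomal order and the number of called regions in brackets. Dark cells in rows with 1 region are single shared regions; Tns4 shares 63.2% of its 38 regions with Igfbp4.

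When the genes were put in 4 stretches by position, a grouping chosen after the values were seen, most pairs stayed in their stretch. The stretches are wide beside the pairs: that from Psmd3 to Rapgefl1 runs from 98534764 to 98718652. The median distance of called pairs was 16.6 kb, and 51 of 672 were over 100 kb. Most pairs would stay in stretches of such width, so no boundary is read from the counts. Of the 165 pairs of promoters from Psmd3 to Rapgefl1, 154 had their distal region in the same stretch and 10 in that from Wipf2 to Top2a. Of the 239 pairs of that second stretch, 213 stayed, 14 went left and 12 went to the stretch of Igfbp4, Tns4 and Ccr7. Of the 213 pairs of those 3 genes, 187 stayed and 26 went to the stretch from Wipf2 to Top2a, with none farther left. No pair of the gasdermin stretch reached Rara.

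The called pairs of the locus had a median distance of 16.6 kb between fragment midpoints, with quartiles of 7.19 and 41.9 kb, against 10.3 kb over all called pairs. Of the 672, 51 were over 100 kb (7.59%), against 6.32% of all called pairs. None was over 1 Mb, against 0.0695% of all, so nothing is read from that. The replicate lists spanned unlike ranges, in the locus and in the genome. In the locus the median was 27.6 kb in replicate 1 and 58.9 kb in replicate 2. Over the whole lists it was 19.8 and 101 kb. In the locus, 2 pairs of replicate 1 (0.122%) and 196 of replicate 2 (9.07%) were over 1 Mb, against 0.371 and 19.4% of the whole lists. The median of the Hi-C pairs of the locus was 11.9 kb, against 9.60 kb over the whole Hi-C list. The named promoter fragment nearest to the distal region was the partner in 27.5% of called pairs of the locus, against 46.5% of all called pairs. At least 5 other named promoter fragments lay between the ends in 23.1% of pairs, against 9.68%. Both shares depend on the density of promoters, 8.83 fragments per 100 kb here against 2.88 over chromosome 11, and on distance. The part of either was not tested.

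Each of the 5 longest pairs ended in a region with at least 8 promoters. After 1810046J19Rik came Csf3 with the regions at 98824977 and 98823368, at 263 and 261 kb, Psmd3 with that at 98803403, at 260 kb, and Med24 with that at 98803968, at 214 kb. The next pair, of Rara at 213 kb, ended in a region with 2 promoters. None of these pairs was in Hi-C. The longest called pair of the locus that Hi-C also listed joined Rara to a region at 98984323, 185 kb away. Pairs of the 5 regions with at least 10 promoters had a median distance of 53.7 kb, and the other pairs 14.7 kb. Promoter numbers and distances come from the same lists, so nothing is read from the regions in which long pairs end.

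Replicate 1 listed 1643 pairs with the window, and 40.9% of them (exact 95% interval 38.5 to 43.3%) were in replicate 2, beside 19.0% of all pairs of replicate 1. Replicate 2 listed 2162, and 31.1% (29.1 to 33.1%) were in replicate 1, beside 17.1%. The rule used this overlap, so nothing is read from it. Up to 5 kb it was 111 of 185 pairs for replicate 1 and 80.4% for replicate 2, and over 100 kb it was 21.4 and 6.63%. Over the whole lists it also fell with distance, from 31.6 and 58.0% up to 5 kb to 7.37 and 2.16% over 100 kb.

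The rule did not use the Hi-C libraries. Of the 672 called pairs, 130 or 19.3% were in it (exact 95% interval 16.4 to 22.5%), beside 12.5% of all called pairs. Read the other way, 33.0% of the 394 Hi-C pairs of the locus were called (28.4 to 37.9%), beside 15.8% of all Hi-C pairs. Pairs that only 1 replicate listed were set beside these: 66 of 971 were in Hi-C for replicate 1, or 6.80% (5.30 to 8.57%), beside 3.17% of such pairs in the genome, and 31 of 1490 for replicate 2, or 2.08% (1.42 to 2.94%), beside 1.05%. The pairs without a call were thus also above the genome's value in the locus. These intervals cover counting error only, and pairs share fragments, so no test of the differences was made.

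The share in Hi-C was also taken by distance. Up to 5 kb, 47 of 111 called pairs of the locus were in Hi-C (42.3%, interval 33.0 to 52.1%), against 20.6% outside the locus. Between 10 and 25 kb it was 27 of 171 (15.8%, 10.7 to 22.1%), against 9.56%, and between 25 and 50 kb 16 of 117 (13.7%, 8.02 to 21.3%), against 5.27%. Over 100 kb, 1 of 51 was listed (1.96%, 0.0496 to 10.4%), against 2.71%. Up to 50 kb the interval of the locus lay above the value outside it in each band, between 50 and 100 kb it held that value (3.87%, interval 3.52 to 15.2%), and over 100 kb it held it too. Without the pairs of Rara, the interval lay above the value outside the locus only up to 5 kb, at 34 of 90 (37.8%, 27.8 to 48.6%). It held that value at 5 to 10 kb (22.9%, 15.0 to 32.6%, against 15.8%), at 10 to 25 kb (14 of 123, 11.4%, 6.36 to 18.4%) and at 25 to 50 kb (7 of 75, 9.33%, 3.84 to 18.3%).

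The share was also taken for the 2 genes with the most regions. Of the called pairs of Rara 28.4% were in Hi-C (21.6 to 36.0%), and of those of Igfbp4 7.74% (4.06 to 13.1%). At matched distances of 10 to 25 kb it was 13 of 48 for Rara (27.1%, 15.3 to 41.8%) and 2 of 46 for Igfbp4 (4.35%, 0.531 to 14.8%), the only one of the bands in which their intervals did not overlap. Without the pairs of Rara, 16.5% of the called pairs of the locus were in Hi-C (the interval starts at 13.4%), against 12.4% outside the locus.

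**Figure D5:**
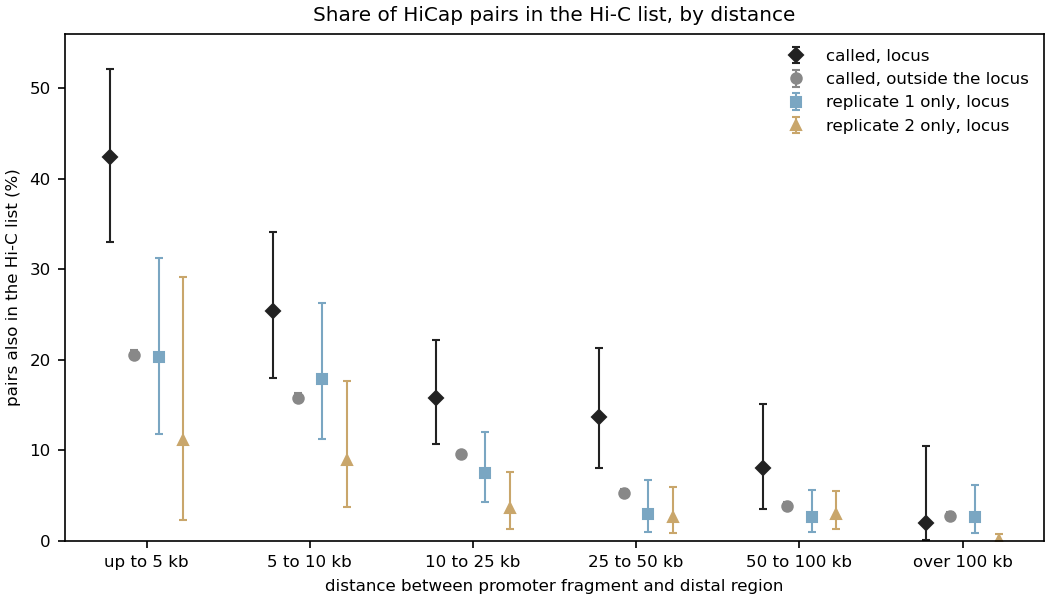
Share in percent of HiCap pairs that the pooled Hi-C list also holds, by distance, for called pairs of the locus and outside it and for pairs of the locus in only 1 replicate list; bars are exact 95% binomial intervals. Up to 50 kb the called pairs of the locus lie above those outside it, 42.3 against 20.6% up to 5 kb.

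The regions had a median length of 507 bp, against 528 bp for the other 12316 called regions of chromosome 11, and a median G+C content of 49.1 against 46.8%. They covered 38.7% of the window. Introns held 32.1% of them, exons 24.5% and stretches between genes 43.4%, against 39.2, 22.4 and 38.4% on the rest of the chromosome. Of the 371, 269 lay in 84 runs of at least 2 adjoining regions. No value for the rest of the chromosome stands beside this count or the covered share, so neither is read as a trait of the locus. The longest run, of 17 regions from 98803018 to 98813442, lies in Rara and holds the regions with 12 and 15 promoters.

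Sequence motifs were searched on both strands. The CTCF core motif, bound by a factor known for anchoring chromatin loops, was found in 5 of the 371 regions (1.35%), against 0.974% on the rest of chromosome 11. The 5 regions with at least 10 promoters held none. One match lies in a region linked to 4 promoters, of Cdc6 and Rara, which is why it is shown, with the motif in capitals, from an intron of Rara on the plus strand.
Region of Cdc6 and Rara, chr11:98815717-98815808: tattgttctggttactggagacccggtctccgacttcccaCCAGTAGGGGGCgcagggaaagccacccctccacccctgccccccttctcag

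The nuclear receptor hexamer AGGTCA, which receptors of the family of Thra, Rara and Nr1d1 bind, was found in 37.2% of the regions, against 35.5% on the rest of the chromosome. The longer site TCAAGGTCA, which holds it and is bound by Esrrb, a receptor of embryonic stem cells, was found in 2.16%, against 2.51%. Of the 5 regions with at least 10 promoters, the one with 11 in Rara held AGGTCA, in 2 copies on the minus strand that read TGACCT here, in capitals. Among 1331 regions of chromosome 11 within 10% of its length, 35.7% held the hexamer.
Hexamers in the region with 11 promoters, chr11:98823855-98823940: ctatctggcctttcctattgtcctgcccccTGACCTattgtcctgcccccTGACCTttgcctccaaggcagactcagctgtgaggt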

How the data were processed

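HiCap and Hi-C libraries were made by the authors from R1 embryonic stem cells. Per the methods, the authors aligned read ends separately to mm9, dropped duplicates and pairs under 1 kb, assigned ends to MboI fragments and kept interactions that at least 3 read pairs supported per replicate. What the authors deposited are genomic positions without read numbers, so the depth behind a pair is unknown. For Hi-C the minimum is not given in the sources used here.

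Pairs, each counted once, were compared between lists by identical positions (Python 3.11.15, pandas 2.3.3). Coordinates are as listed, except that printed sequences count from 1. Listed distal starts lie 1 base before the MboI site counted so, and promoter fragments are listed 2 bases to the right of their sites. All 371 regions start and end at MboI sites, and 18 hold several fragments. Distance is between midpoints. Shares carry exact (Clopper-Pearson) 95% binomial intervals (scipy 1.17.1), which cover counting error only. The code that matches lists was checked on simulated lists with planted pairs, which bears on the code and not on the overlaps. Place came from GENCODE for mm9 without pseudogenes.

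The members, gene lists and comparisons were chosen with earlier results of these data known. Named genes were Cdc6, Thra, Rara and Igfbp4, the 20 with the most called regions, those without a call, and those of the 10 regions with the most promoters and of the 5 longest pairs. Alternatives were each replicate alone, the authors' combined list, pairs over 15 kb, promoters in the window, merged adjoining regions, genes as units and matches within 1 kb. Those on shared regions and on single regions were added after seeing the data. The Capture-C samples were not used here.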

Additional observations from a re-analysis of the deposited data

How the results depend on the processing

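A count was taken as kept within 1.5 times, a Hi-C or replicate share within its exact interval, and a mean or median within 1 SD between the replicate lists, which for the median distance is as wide as 22146 bp. By these limits 29 of 54 alternatives moved the value, and 15 of 27 added after seeing the data, on shared and single regions, did. Requiring 1 replicate list instead of both gave 1643 to 2162 pairs, 686 to 764 regions, 65 to 255 promoters, means of 2.40 to 2.83 promoters per region, 8 to 12 regions with at least 10 promoters, median distances of 27608.5 to 58927.5 bp and Hi-C shares of 7.45 to 11.9%. Pairs over 15 kb numbered 357 on 212 regions, with a median of 40006 bp, and 10.6% were in Hi-C. Merging adjoining regions gave 426 pairs, 186 regions and 2.29 promoters per region. With genes as units, there were 23 genes, 1.45 per region, 2 regions with at least 10 and a Hi-C share of 24.7%. That share was 45.8% for Hi-C regions within 1 kb and 29.8% for any pair of the same gene. The share of pairs in the other replicate was 77.7 and 57.3% within 1 kb, and 33.9 and 21.3% over 15 kb, for replicates 1 and 2. The authors' combined list also had 672 pairs, of which 652 were the called ones. No paired analysis was possible because the results come from no test. Without read numbers, weak pairs cannot be told from strong ones.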
